A study of Mus musculus with 4 samples.

Results

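Kidney cortex is not injured evenly after ischemia, and the cortex of each ischemic section was split here by its own level of *Havcr1*, the gene of kidney injury molecule 1. The compared spots were 357 *Havcr1*-high and 357 *Havcr1*-low cortex spots, 714 of the 10312 tissue spots of the series. They were chosen by measured values, in 2 steps. Cortex was the 30% of tissue spots of a section with the highest share of *Slc5a2*, *Slc5a12*, *Slc22a6* and *Slc22a8*, 4 transporter genes of the proximal tubule, after each spot had been pooled with its up to 6 array neighbours. Cortex spots with at least 2000 unique molecular identifiers (UMIs, 1 per captured RNA molecule) were then ranked by the share of *Havcr1* in the UMIs of the spot alone and split into 4 groups of near equal size, of which the highest (*Havcr1*-high) was set against the lowest (*Havcr1*-low). This left 174 high and 174 low spots of 698 ranked spots in ischemic section 1, and 183 high and 183 low spots of 732 ranked spots in ischemic section 2. The lower and upper middle groups held the other 716 ranked spots.

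The sections were cut at 10 µm from left kidneys of male wild type C57BL/6J mice of 7 to 8 weeks and profiled on Visium, an array of barcoded spots that capture polyadenylated RNA. Both ischemic sections came from mice whose renal pedicles had been clamped on both sides for 30 min and which were killed 24 h later, and 2 sections of normal kidney served as reference. Each of the 4 sections held 25957128 to 44528078 UMIs. The study describes 2 Visium slides, and the slide of each section was not recorded here. The sources do not name the mouse behind each section, and the study describes technical as well as biological replicates, so p-values measure the spread between sections and may not measure the spread between mice. A spot is a small region that can hold several cells of different types, spots were never used as replicates, and the counts of each group were summed per section. The ischemic sections shared 1860 barcodes, which mark the same positions of the array design and not shared cells.

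*Havcr1* encodes a transmembrane glycoprotein of the T cell immunoglobulin and mucin family. It is nearly absent from healthy kidney and is induced in injured proximal tubule cells, where it recognises phosphatidylserine on dying cells and oxidised lipids and lets the epithelial cell take up debris. The proximal tubule starts with a convoluted part in the cortex that reabsorbs glucose, phosphate and amino acids, and it ends with a straight part that runs down into the outer stripe of the outer medulla. The straight part is known as the segment most sensitive to ischemia. *Havcr1* (ENSMUSG00000040405) is a protein-coding gene at chr11:46735080-46779578 on the plus strand of GRCm38. Because it carried the ranking, the 250 bases before the first of its 3 RefSeq start sites are shown (GRCm38.p6, chr11:46739973-46740222, plus strand, 5′ to 3′). Neither of the motifs searched, described with the antioxidant genes, was in the 250 bases before any of the 3 start sites, so no letter is in capitals.
*Havcr1* promoter: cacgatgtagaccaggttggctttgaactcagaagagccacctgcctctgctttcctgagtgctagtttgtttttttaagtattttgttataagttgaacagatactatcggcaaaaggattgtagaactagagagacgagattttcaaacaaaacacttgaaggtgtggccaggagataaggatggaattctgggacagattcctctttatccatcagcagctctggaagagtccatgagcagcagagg

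The gap in *Havcr1* that the selection created was wide in both sections. The high spots held 5066 *Havcr1* UMIs in section 1 and 5801 in section 2, against 712 and 459 UMIs in the low spots. A median high spot held 28 *Havcr1* UMIs in either section and every high spot held at least 4. A median low spot held 3 UMIs in section 1 and 2 UMIs in section 2, and 16 and 32 low spots held none. Cortex itself ended at 4.316 UMIs of the 4 genes per 10000 in section 1 (next spot outside 4.313) and at 3.56 in section 2 (3.54). At the upper limit of the *Havcr1* ranking, the last high spot had 15.4 *Havcr1* UMIs per 10000 UMIs in section 1 and the next spot below it 15.3, and the corresponding values in section 2 were 17.14 and 17.13. At the lower limit, the last low spot had 6.16 per 10000 and the next spot above it 6.18 in section 1, and 5.45 and 5.51 in section 2. The limits cut through a continuous range. The cortex spots of each normal section, 776 and 772 in number, held 3 *Havcr1* UMIs in all, so *Havcr1*-low cortex was still far above normal cortex.

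The high and low spots took different places in the cortex. High spots lay toward the inner border of the cortex, and 59.2% and 55.2% of them in sections 1 and 2 touched tissue outside the cortex, against 24.7% and 15.8% of low spots. Only 5.17% and 10.9% of high spots lay 4 or more steps inside the cortex, against 36.2% and 46.4% of low spots. Low spots more often lacked 1 or more tissue neighbours, as spots at the kidney surface do (29.9% and 35.5%, against 10.3% and 17.5% of high spots). High spots were also deeper in UMIs, with medians of 14276.5 and 13238 UMIs against 9549 and 7036. The genes of the cortex rule took a smaller share of the high spots, 5.46 and 4.70 UMIs per 10000 against 7.09 and 6.98. The median share of mitochondrial UMIs was 2.94% and 3.29% in high spots and 3.41% and 3.85% in low spots. Rankings within layers of depth and position are given with the alternatives.

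**Figure D1:**
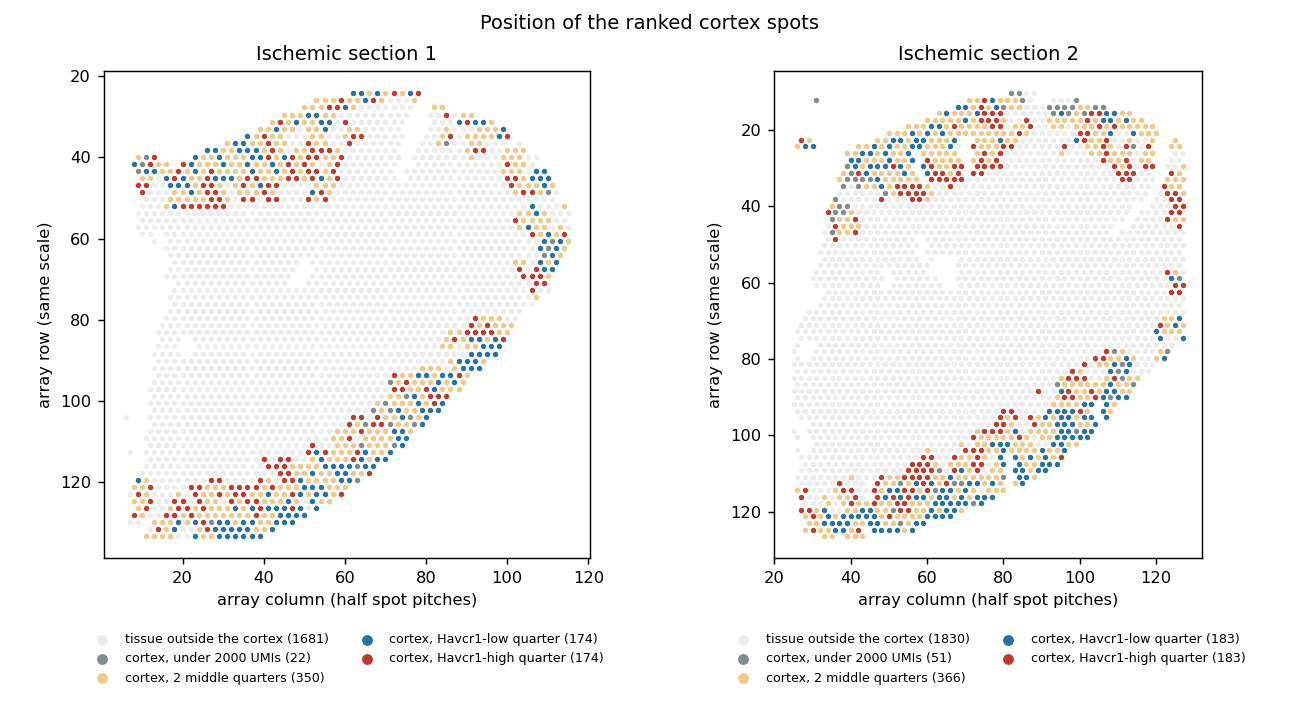
Positions of the tissue spots of ischemic sections 1 and 2 on the capture array, in array columns and rows drawn to 1 scale. Each point is 1 spot, colored by its place in the ranking, with the number of spots in the legend. The 174 and 183 Havcr1-high spots lie mostly along the inner border of the cortex and the Havcr1-low spots mostly toward the kidney surface.

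High spots stood beside high spots. Of the ranked neighbours of high spots, 37.8% in section 1 and 47.4% in section 2 were high and 11.6% and 8.49% were low. Of the ranked neighbours of low spots, 10.5% and 7.62% were high and 42.9% and 44.1% were low. Spots were also ranked by the *Havcr1* of their neighbours alone. The *Havcr1* of a spot did not enter its own rank but entered the ranks of its neighbours. Own *Havcr1* then stood at 1679 and 2205 CPM (counts scaled by library size and TMM factor) in the high spots of sections 1 and 2. In the low spots it stood at 714 and 563 CPM. The difference had a log2 fold change of 1.60 (standard error 0.09), given as a description because the counts compared also formed the groups. By this description, neighbouring spots tended to be alike in measured *Havcr1*. The spots ranked high by their neighbours were also deeper, with medians of 13543 and 12701 UMIs against 10906.5 and 7711 in sections 1 and 2. The cause of the likeness was not tested.

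The transcriptomes of the groups were compared with edgeR's quasi-likelihood test on the 4 summed libraries, with the section as a block and Benjamini-Hochberg adjustment over all genes tested. Of 10424 genes, 1193 (11.4%) were higher in the high spots and 1071 (10.3%) were lower at an adjusted p under 0.05. *Havcr1* and the 4 cortex genes were left out of these counts because they chose the spots. The fit found little more spread between sections than counting gives. The call counts were sensitive to this estimate, and DESeq2, which estimated a larger spread, called 263 genes higher and 182 lower. The standard errors given with fold changes rest on the edgeR estimate and can be smaller than the gap between sections. In sections 1 and 2 taken alone, the log2 difference of *Klk1* was -2.80 and -3.42, and that of *Gatm* was -1.70 and -2.47. With section 1 left out, 262 genes were higher and 371 lower, and with section 2 left out 138 and 220, in fits where the lone library of each group was assumed to vary like the normal libraries. Scaling by library totals alone moved the median gene by -0.15 on the log2 scale and the calls to 687 higher and 1760 lower, so all changes below are relative to the TMM scaling, under which the median gene was at -0.01. No gene reported below as higher or lower reversed its sign under the scaling by totals.

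**Figure D2:**
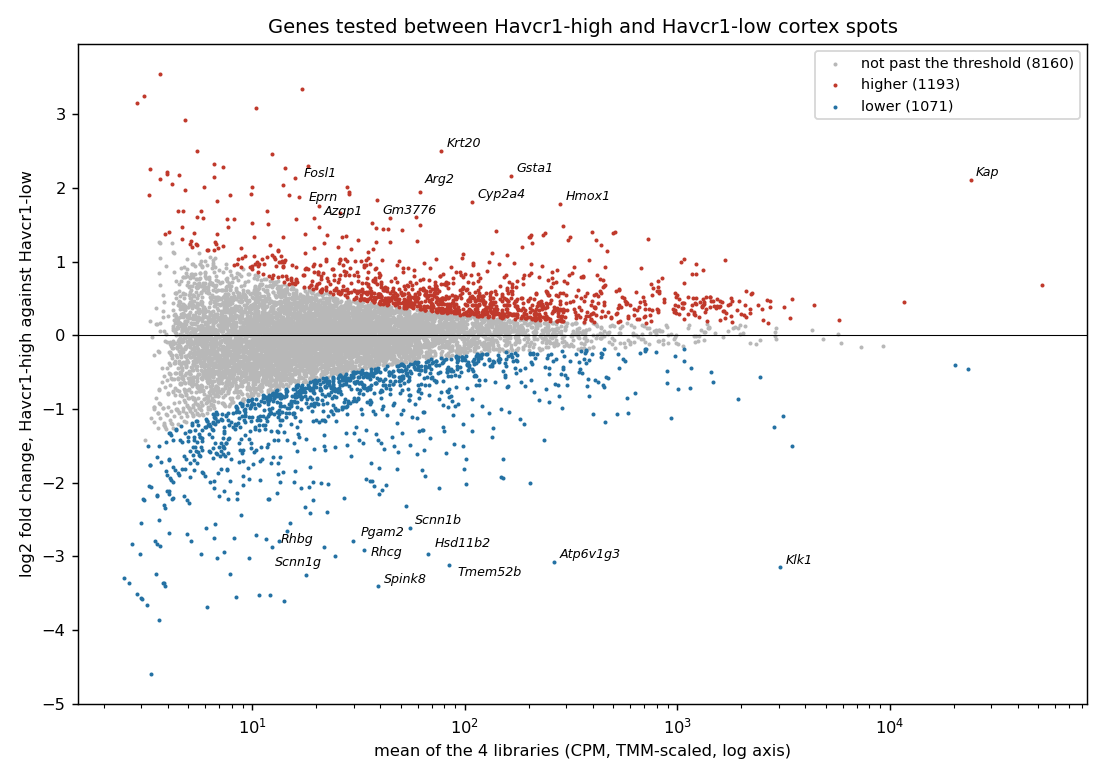
Log2 fold change of Havcr1-high against Havcr1-low cortex spots (y axis) by mean level over the 4 libraries (x axis, CPM after TMM scaling, log axis), 1 point per gene tested. The 1193 genes called higher and 1071 called lower are colored, and the 10 largest rises and falls with a mean of at least 20 CPM are named.

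The leading rises held a marker of injured epithelium, stress genes and genes of metabolism. *Krt20*, a keratin of injured tubules, stood at 24.4 and 21.4 CPM in the low spots of sections 1 and 2 and at 124 and 139 CPM in the high spots, a log2 fold change of 2.51 (standard error 0.14). *Krt20* had no UMI in normal cortex. *Fosl1*, a subunit of the transcription factor AP-1, rose from 13.2 and 8.30 CPM to 41.4 and 48.3 CPM (2.02 ± 0.23, log2 fold change ± standard error, as in the values that follow). Both genes were higher in both high libraries than in both low libraries by more than the sections differed.

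*Kap*, the kidney androgen-regulated protein of the proximal tubule, rose from 9517 and 8553 CPM to 38086 and 39973 CPM (2.11 ± 0.07), still below the 115099 and 76714 CPM of normal cortex. *Gsta1*, a glutathione transferase, rose from 58.6 and 61.1 to 260 and 280 CPM (2.17 ± 0.10). Its near copy *Gm3776* rose by 1.84 ± 0.19, and reads of these paralogs may have been split between them. The same limit holds for *Cyp2a4* (1.82 ± 0.11), a cytochrome P450 with close paralogs. The other leading rises were the arginase *Arg2* (1.95 ± 0.15), the heme oxygenase *Hmox1* (1.79 ± 0.08), *Eprn* (1.95 ± 0.22) and *Azgp1* (1.92 ± 0.22). In high spots *Azgp1* stood at 48.1 and 42.9 CPM, below the 137 and 107 CPM of normal cortex. *Cyp2a4* stood at 49.3 and 46.3 CPM in low, 162 and 177 CPM in high and 154 and 120 CPM in normal spots. *Arg2*, *Hmox1* and *Eprn* were above normal cortex in both high libraries. *Azgp1* had the highest adjusted p of these 10 genes (1.77e-16).

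The 10 leading falls held genes of the distal nephron and collecting duct. *Klk1*, the tissue kallikrein secreted by the connecting tubule, stood at 4297 and 6717 CPM in low spots and 609 and 606 CPM in high spots (-3.15 ± 0.07). *Klk1* has close paralogs between which reads can be split. *Atp6v1g3*, a subunit of the proton pump of intercalated cells, fell from 420 and 521 to 57.2 and 54.2 CPM (-3.07 ± 0.09). *Scnn1g* and *Scnn1b*, subunits of the epithelial sodium channel, fell by 2.99 and 2.61 on the log2 scale, *Hsd11b2*, which protects the mineralocorticoid receptor from cortisol-like steroids, by 2.97, and the ammonia transporters *Rhcg* and *Rhbg* by 2.92 and 2.87. *Spink8* (-3.41 ± 0.22), *Tmem52b* (-3.11 ± 0.14) and *Pgam2* (-2.80 ± 0.23) completed the list. The highest adjusted p among these 10 genes was that of *Rhbg* (6.15e-24).

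All 10 leading rises and all 10 leading falls were ordered over the 4 groups of the ranking in both sections. The ends of this order chose the genes, and the middle groups were not in the test. Over all calls, 475 of the 1193 genes called higher and 324 of the 1071 called lower were ordered in this way in both sections.

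**Figure D3:**
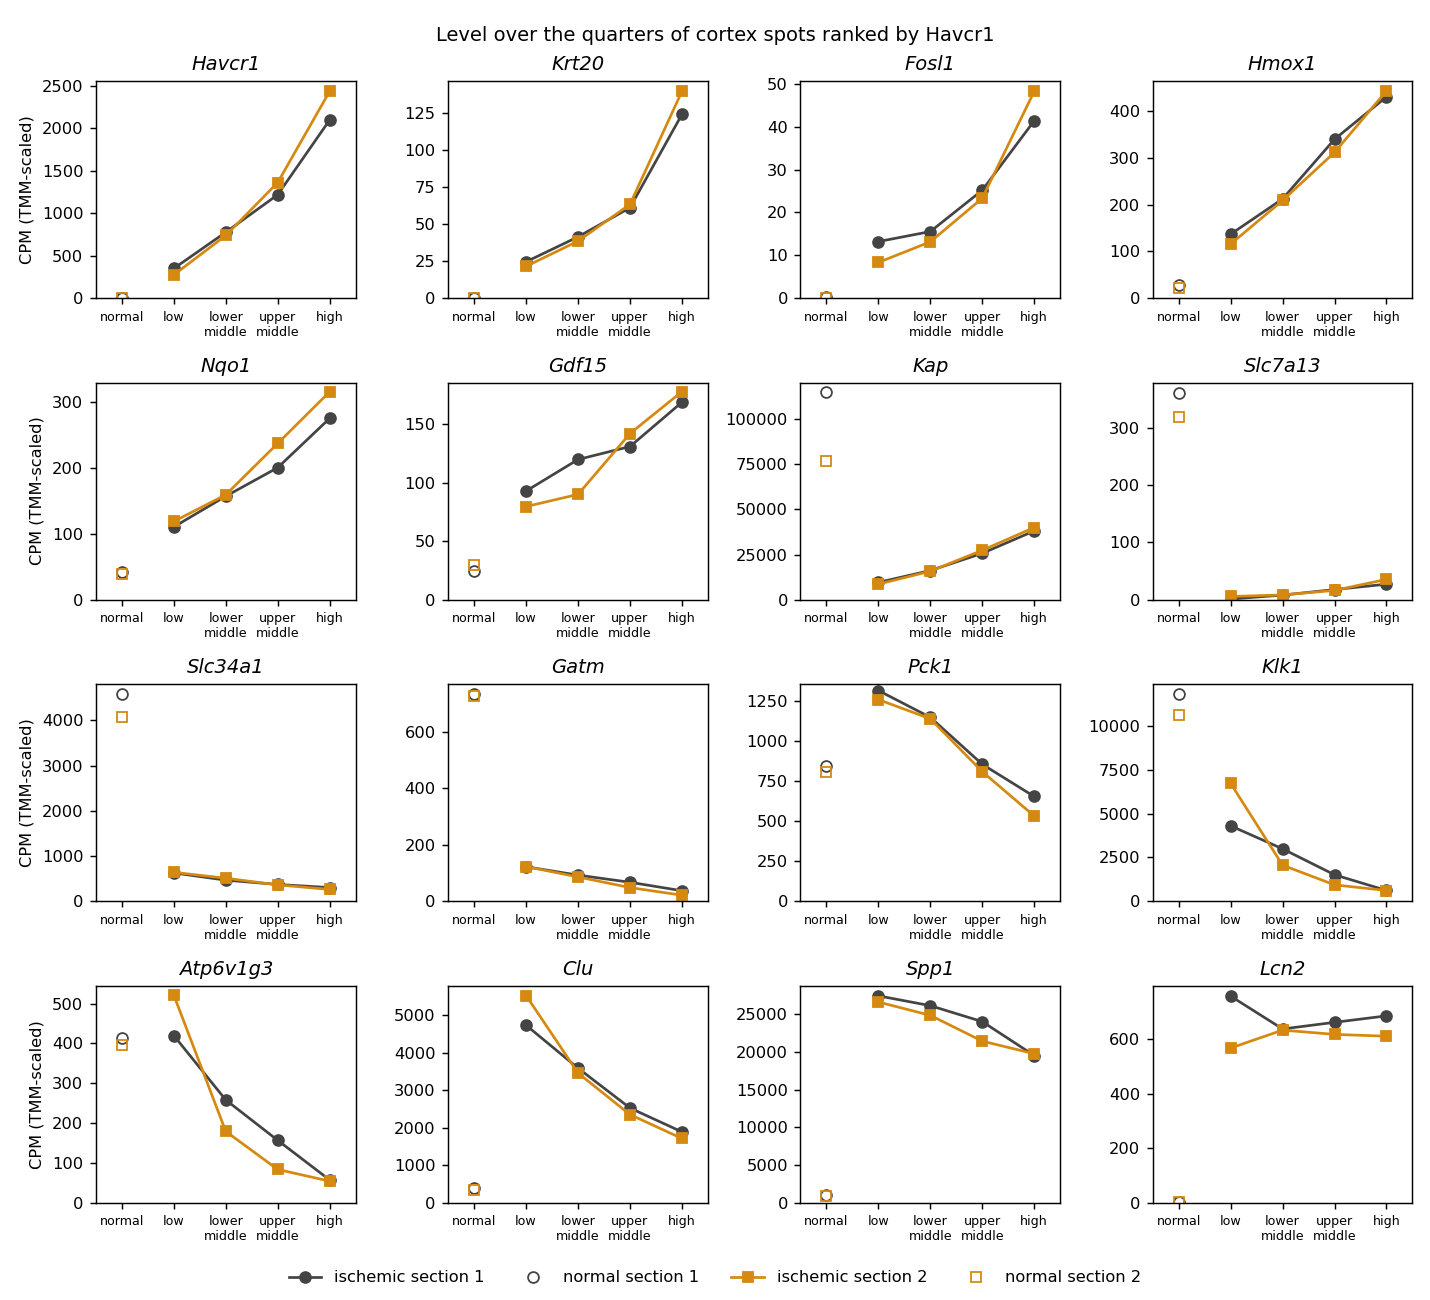
Level of 16 genes (y axes, CPM after TMM scaling, starting at 0) in normal cortex (open symbols) and in the 4 groups of ischemic cortex spots ranked by Havcr1 (filled symbols), for each section. Krt20, Fosl1, Hmox1, Nqo1, Gdf15 and Kap climb and Klk1, Atp6v1g3, Clu, Gatm and Pck1 decline over the groups in both sections, while Lcn2 has no common trend.

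Genes of the antioxidant response were higher in the high spots. NRF2 is a transcription factor that is freed by oxidants and electrophiles and switches on glutathione and thioredoxin enzymes and proteins that handle heme and iron. Of the 15 genes of the list, 14 passed the filter on low counts, 12 were higher in high spots and none was lower, with a median log2 fold change of 0.67 against -0.01 over all genes. Among all genes tested, 11.4% were higher and 10.3% lower. *Nqo1*, a quinone reductase, stood at 110 and 119 CPM in low and 275 and 316 CPM in high spots (1.36 ± 0.09). *Hmox1*, which degrades heme, stood at 137 and 116 CPM in low and 431 and 444 CPM in high spots, against 28.0 and 20.3 CPM in normal cortex. *Gclm*, the modifier subunit of the first enzyme of glutathione synthesis, rose from 261 and 262 to 565 and 663 CPM (1.22 ± 0.07), and its catalytic partner *Gclc* by 0.60 ± 0.09. The thioredoxin reductase *Txnrd1* rose by 1.02 ± 0.07, the glutathione reductase *Gsr* by 0.82 ± 0.09, the sulfiredoxin *Srxn1* by 0.78 ± 0.08, *Txn1* by 0.65 ± 0.06 and *Prdx1* by 0.61 ± 0.06. Of the ferritin chains, *Fth1* rose by 0.69 ± 0.07 and *Ftl1* by 0.46 ± 0.07, and the metallothionein *Mt2* rose by 0.19 ± 0.06. *Mt1* (0.08 ± 0.06, adjusted p = 0.424) and *Osgin1* (0.11 ± 0.13, adjusted p = 0.625) did not pass the threshold, and *Slc7a11* was too low to be tested. DESeq2 called 10 of the 14 higher, and the fits without section 1 or section 2 called 6 and 5.

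The promoters of 12 of the 15 listed genes were in the RefSeq table used (GRCm38.p6), and 4 of them (*Gclm*, *Txnrd1*, *Prdx1* and *Mt2*) held the core of the antioxidant response element, TGACNNNGC, on either strand of the 250 bases before a start site. Of the 27025 genes in the table, 11.5% held it before at least 1 start site, and of all 32851 promoters of that length 10.2% did. The AP-1 site TGACTCA, which can overlap the element, was in 4 of the 12 (*Srxn1*, *Osgin1*, *Prdx1* and *Mt2*), in 5.16% of all genes and in 4.46% of all promoters. A match is a description of the sequence and does not show a bound site. The matches of *Gclm*, *Txnrd1* and *Prdx1*, which rose together in the high spots, are shown in capitals in the 250 bases before the start, 5′ to 3′ along the gene, all on the plus strand. The start is the second of 3 for *Txnrd1* and the only one in the table for the others. They lie at chr3:122245307-122245556, chr10:82858956-82859205 and chr4:116685349-116685598. In *Prdx1* an AP-1 site and the element overlap on the reverse strand, and a second AP-1 site lies further upstream.
*Gclm* promoter: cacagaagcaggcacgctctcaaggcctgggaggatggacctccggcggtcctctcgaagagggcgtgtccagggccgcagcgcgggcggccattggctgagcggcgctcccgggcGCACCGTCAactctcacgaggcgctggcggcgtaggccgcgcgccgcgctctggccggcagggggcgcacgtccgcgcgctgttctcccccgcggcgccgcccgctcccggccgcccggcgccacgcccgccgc
*Txnrd1* promoter: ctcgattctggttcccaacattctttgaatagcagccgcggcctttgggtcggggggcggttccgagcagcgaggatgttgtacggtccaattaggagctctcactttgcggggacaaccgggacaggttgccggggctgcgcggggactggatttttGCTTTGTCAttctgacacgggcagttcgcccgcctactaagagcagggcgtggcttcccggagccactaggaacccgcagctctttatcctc
*Prdx1* promoter: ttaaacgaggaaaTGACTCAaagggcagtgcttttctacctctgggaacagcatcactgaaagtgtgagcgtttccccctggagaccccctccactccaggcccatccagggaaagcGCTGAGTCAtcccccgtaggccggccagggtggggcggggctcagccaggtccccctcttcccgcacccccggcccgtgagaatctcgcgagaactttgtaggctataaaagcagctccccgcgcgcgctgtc

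Targets of p53, the factor that answers DNA damage, also rose more often than they fell. Of 12 genes, all tested, 8 were higher and 1 lower, with a median of 0.63. The shares over all genes tested were 11.4% higher and 10.3% lower. *Gdf15*, a secreted stress cytokine, stood at 92.8 and 79.5 CPM in low and 169 and 178 CPM in high spots (1.00 ± 0.10). *Cdkn1a*, the cell cycle inhibitor p21, stood at 26.9 and 19.0 CPM in low and 40.6 and 50.4 CPM in high spots (0.96 ± 0.19). *Phlda3* rose by 1.01 ± 0.20, *Zmat3* by 0.81 ± 0.21, *Mdm2* by 0.66 ± 0.16, *Bax* by 0.60 ± 0.09 and *Ccng1* by 0.56 ± 0.09. *Tnfrsf10b*, a death receptor with under 10 CPM in each library, rose by 1.68 ± 0.47. *Pmaip1*, a gene that promotes cell death, was lower (-0.82 ± 0.28, adjusted p = 0.0175). DESeq2 called 2 of the 12 higher, and the fits without section 1 or section 2 called 4 and 2.

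Among the immediate early and AP-1 genes, 17 of 18 were tested, 4 were higher and 2 lower, with a median of 0.11. *Myc* rose from 12.2 and 12.5 to 37.7 and 40.8 CPM (1.66 ± 0.23) beside *Fosl1*. *Egr1* passed the threshold (0.76 ± 0.28, adjusted p = 0.033) but lost it under most alternatives. Of 13 heat shock genes, 8 were higher and 3 lower, with a median of 0.34. The mitochondrial chaperone *Hspd1* rose by 0.79 ± 0.07 and *Hspb1* by 0.80 ± 0.09, while *Hspb8* (-2.14 ± 0.40) and *Hspa1a* (-0.80 ± 0.26) were lower. Of 13 annexin and S100 genes, which bind calcium and membranes, 7 were higher and 3 lower. *Anxa3* rose by 1.42 ± 0.10, *Anxa2* by 1.26 ± 0.09 and *S100a6* by 1.04 ± 0.06, and *S100g*, the vitamin D dependent calcium carrier of the distal tubule, fell by 1.25. In the matrix and protease list, the urokinase *Plau* (1.37 ± 0.24) rose, as did the urokinase receptor *Plaur* (1.60 ± 0.17) of the injury list. *Cxcl1*, a chemokine that attracts neutrophils, rose by 1.60 ± 0.26 and the macrophage growth factor *Csf1* by 1.17 ± 0.21. Of 15 tested genes of the unfolded protein and integrated stress response, 1 was higher (*Asns*, 0.93 ± 0.27) and 3 were lower, with a median of -0.06. The counts of these lists stand beside 11.4% higher and 10.3% lower over all genes tested. DESeq2 called 2 of the immediate early genes, 4 of the heat shock genes, 4 of the annexin and S100 genes and 1 each of the chemokine and matrix lists higher, and none of the unfolded protein list.

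Genes known from injured tubules split in both directions. Of the 25 genes of this list, 10 were higher in high spots, 7 were lower and 8 did not pass the threshold, with a median of 0.05 (DESeq2 called 6 higher and 6 lower). With edgeR, 11.4% of all genes tested were higher and 10.3% lower. Beside *Krt20*, *Cryab*, a small heat shock protein (1.40 ± 0.07), *Sprr1a* (0.87 ± 0.11), *Tnfrsf12a*, the receptor of TWEAK (0.73 ± 0.08), *Il34* (0.69 ± 0.12) and *Krt8* (0.46 ± 0.07) were higher. *Sox9*, a factor of regenerating tubule cells, was higher at low counts (0.78 ± 0.27, adjusted p = 0.024) and lost the call in several alternatives. Clusterin (*Clu*) was lower, with 4729 and 5519 CPM in low and 1888 and 1712 CPM in high spots (-1.51 ± 0.06). *Krt18* (-1.40 ± 0.13), *Krt7* (-1.26 ± 0.10) and *Cd24a* (-0.58 ± 0.07) were lower as well. *Spp1* (osteopontin) stood at 27423 and 26605 CPM in low and 19511 and 19751 CPM in high spots (-0.46 ± 0.07). *Krt8* and *Krt18* encode keratins that pair with each other, and they moved in opposite directions.

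*Lcn2*, which encodes the injury marker neutrophil gelatinase-associated lipocalin, did not follow *Havcr1*. It stood at 757 and 567 CPM in low and 685 and 610 CPM in high spots, so the groups overlapped (-0.03 ± 0.07, adjusted p = 0.834). In normal cortex *Lcn2* stood at 0.859 and 1.50 CPM. The result depended on how the spots were balanced, as described with the alternatives. *Vim* (-0.01 ± 0.13) and *Cp* (0.05 ± 0.15) also had differences close to 0. *Vcam1* (0.62 ± 0.31, adjusted p = 0.146) and *Cd44* (1.25 ± 0.51, adjusted p = 0.0643) had few counts and did not pass the threshold.

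Proximal tubule transport genes moved in both directions. *Slc34a1*, the phosphate transporter of the convoluted part, stood at 624 and 638 CPM in low and 300 and 259 CPM in high spots (-1.17 ± 0.07), against 4585 and 4083 CPM in normal cortex. Of 25 transport genes in a list drawn up for segments 1 and 2, 12 were lower and 7 higher, with a median of -0.33 (DESeq2 called 6 lower and 3 higher). With edgeR, 10.3% of all genes tested were lower and 11.4% higher. *Slc34a3* (-2.69 ± 0.57), *Slc7a8* (-1.42 ± 0.18) and *Slc6a19*, the neutral amino acid transporter of the early tubule (-0.94 ± 0.11), were lower. Its relative *Slc6a18*, placed in the same list, was higher (290 and 266 against 748 and 728 CPM, 1.41 ± 0.07). The tubule segment that expresses *Slc6a18* was not examined here. Of the cortex rule genes themselves, described without a test, *Slc5a2* fell from 158 and 174 to 54.3 and 41.2 CPM and *Slc5a12* from 19.0 and 13.0 to 3.73 and 3.78 CPM. *Slc22a8* fell from 49.8 and 42.7 to 22.4 and 24.8 CPM, whereas *Slc22a6* stood at 433 and 428 CPM in low and 501 and 476 CPM in high spots.

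The 3 tested markers of the straight tubule of the outer stripe were all higher in high spots, beside 11.4% of all genes tested. *Slc7a13*, an amino acid transporter of the straight part, had 2 and 9 UMIs in the low spots and 65 and 84 UMIs in the high spots (3.35 ± 0.34). *Serpina1f* (2.46 ± 0.35) and *Atp11a* (0.72 ± 0.09) were higher too, and the other 2 genes of the list were too low to be tested. In normal cortex *Slc7a13* stood at 362 and 319 CPM, above the 26.9 and 35.3 CPM of the high spots. With spots at least 2 steps from tissue outside the cortex, *Slc7a13* was at 3.59, *Serpina1f* at 2.16 and *Atp11a* at 0.88. Fewer cells of a segment and less RNA per cell cannot be told apart in summed spots.

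Metabolic lists differed in their counts, which stand beside 11.4% higher and 10.3% lower over all genes tested. Gluconeogenesis, the making of glucose that the early proximal tubule carries out, was lower in 4 of 5 genes and higher in none. *G6pc* stood at 41.5 and 46.9 CPM in low and 14.9 and 13.4 CPM in high spots (-1.63 ± 0.21), *Pck1* at 1313 and 1256 against 652 and 531 CPM (-1.12 ± 0.06), *Fbp1* fell by 0.99 and *Pcx* by 0.47 on the log2 scale. Of 25 tested genes of other proximal tubule metabolism, 9 were higher, among them *Kap*, and 10 lower. Lower were *Gatm*, which makes the precursor of creatine (122 and 123 against 36.9 and 21.0 CPM, -2.07 ± 0.13) and *Gldc* (-1.28 ± 0.14). Of 30 genes of fatty acid oxidation and peroxisomes, 11 were higher and 6 lower. DESeq2 called 3 gluconeogenesis genes lower, 7 of the other metabolism genes higher and 6 lower, and 7 of the fatty acid genes higher and 4 lower. The peroxisomal enzymes *Ehhadh* (0.81 ± 0.07) and *Acot12* (0.74 ± 0.10) rose, and *Cyp4a14* (-0.77 ± 0.08) and the fatty acid carrier *Fabp1* (-1.94 ± 0.20) fell.

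The respiratory chain barely moved. Its counts, and those of glycolysis and nephron identity genes, stand beside 11.4% higher and 10.3% lower over all genes tested. Of 34 nuclear genes of the chain, 2 were higher (*Cycs*, 0.29 ± 0.06, and *Ndufb8*, 0.22 ± 0.07) and 1 was lower (*Atp5g1*, -0.35 ± 0.07), with a median of 0.01. Of 12 tested mitochondrially encoded genes, *mt-Nd3* alone was lower (-0.28 ± 0.06). Under scaling by library totals 16 of the 34 and 9 of the 12 were lower and 1 of the 34 higher, so this group has no direction that is free of the scaling. Of 14 tested glycolysis genes, 3 were higher and 6 lower, among the latter *Hk1* (-0.96 ± 0.21) and *Pkm* (-0.60 ± 0.08). Of 13 tested transcription factors of nephron identity, none was higher and 4 were lower. Among them were *Tfcp2l1*, a factor of the collecting duct (-1.20 ± 0.11), *Maf* (-0.66 ± 0.16) and *Esrra*, a receptor that drives mitochondrial genes (-0.46 ± 0.15), while *Hnf4a*, the factor of the proximal tubule, stood at 168 and 164 CPM in low and 191 and 176 CPM in high spots (0.14 ± 0.09, adjusted p = 0.271).

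Endocytic receptors, which take filtered protein into the proximal tubule, gave small differences. Megalin (*Lrp2*) rose by 0.39 ± 0.08 and cubilin (*Cubn*) by 0.50 ± 0.12, and of the 8 genes of the list 3 were higher and 1 was lower. Neither megalin nor cubilin passed the threshold with DESeq2, nor when spots were balanced for other segments. Of 18 genes for phosphatidylserine receptors and bridging proteins, the group to which *Havcr1* itself belongs by function, 11 were tested. Of these 2 were higher and 3 lower, with a median of -0.11, beside 11.4% higher and 10.3% lower over all genes tested. *Timd2*, a mouse relative of *Havcr1*, rose from 189 and 163 to 421 and 449 CPM (adjusted p = 5.81e-59), and the scavenger receptor *Cd36* from 278 and 306 to 635 and 658 CPM (1.15 ± 0.07). The macrophage receptor *Mertk* (-1.05 ± 0.38, adjusted p = 0.0305) and its ligand *Gas6* (-0.68 ± 0.10) were lower. *Timd2* lies in the same gene family as *Havcr1*, and reads shared between them were not examined.

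Markers of every other nephron segment of the cortex except the thick ascending limb fell in the high spots. All 7 principal cell markers, all 6 tested intercalated cell markers and all 8 podocyte markers were lower, with medians of -2.23, -2.64 and -1.68, as were 4 of 5 tested markers of the distal convoluted tubule (median -1.38). Among all genes tested, 10.3% were lower and 11.4% higher. DESeq2 called 6 principal, 6 intercalated, 2 podocyte and 2 distal convoluted tubule markers lower. The water channel *Aqp2* stood at 240 and 238 CPM in low and 65.5 and 59.7 CPM in high spots. *Calb1*, a calcium buffer of the distal tubule, stood at 78.1 and 97.3 against 17.0 and 18.1 CPM. Of 7 thick ascending limb markers, *Umod*, or uromodulin (660 and 584 against 1015 and 1126 CPM), and *Slc12a1*, the target of loop diuretics (12.7 and 11.9 against 24.9 and 21.0 CPM), were higher and 2 others lower. Summed over all 35 markers of these 5 groups, the median spot held 15.6 and 13.1 UMIs per 10000 in high and 28.0 and 30.0 per 10000 in low spots. The marker share of other segments thus moved with the *Havcr1* ranking, and its part in the other differences was not tested beyond the balanced ranking that follows.

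Vessel, stromal and immune genes were lower or not different. Over all genes tested, 10.3% were lower. Of 9 endothelial genes 4 were lower (*Ehd3*, *Tie1*, *Emcn* and *Plvap*), of which DESeq2 called none, and of 6 tested genes of smooth muscle, pericytes and renin cells 3 were lower, among them *Ren1* (190 and 120 against 70.0 and 26.9 CPM, -1.68 ± 0.11), of which DESeq2 called 1. None of 5 tested fibroblast genes passed the threshold. Immune lists were low in summed level. The neutrophil list summed to 93.2 and 84.2 CPM in low and 62.6 and 83.6 CPM in high spots, with *Camp* at 0 UMIs. Of its 3 tested genes 1 was lower (*S100a9*, -0.48 ± 0.17, adjusted p = 0.0266), a call lost with DESeq2. The median of the 3 genes was -0.60 in section 1 and 0.34 in section 2, and only 1 gene had the same sign in both. The direction of the neutrophil genes is thus not settled, and *S100a9* turned sign when spots were ranked after thinning. The macrophage list summed to 287 and 234 CPM in low and 221 and 194 CPM in high spots, with 2 of 10 tested genes lower, among them *Cd74* (-1.01 ± 0.15). The T cell list summed to 1.47 and 2.97 CPM in low and 0.414 and 1.26 CPM in high spots, *Cd3e*, *Cd3d* and *Cd8b1* had no UMI in either, and none of its 9 genes could be tested. Hemoglobin genes were lower in high spots in both sections but varied more between the sections than between the groups (*Hbb-bs*: 362 and 1097 CPM in low, 165 and 689 CPM in high spots), and none of the 5 genes of that list kept its call without the section block.

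**Figure D4:**
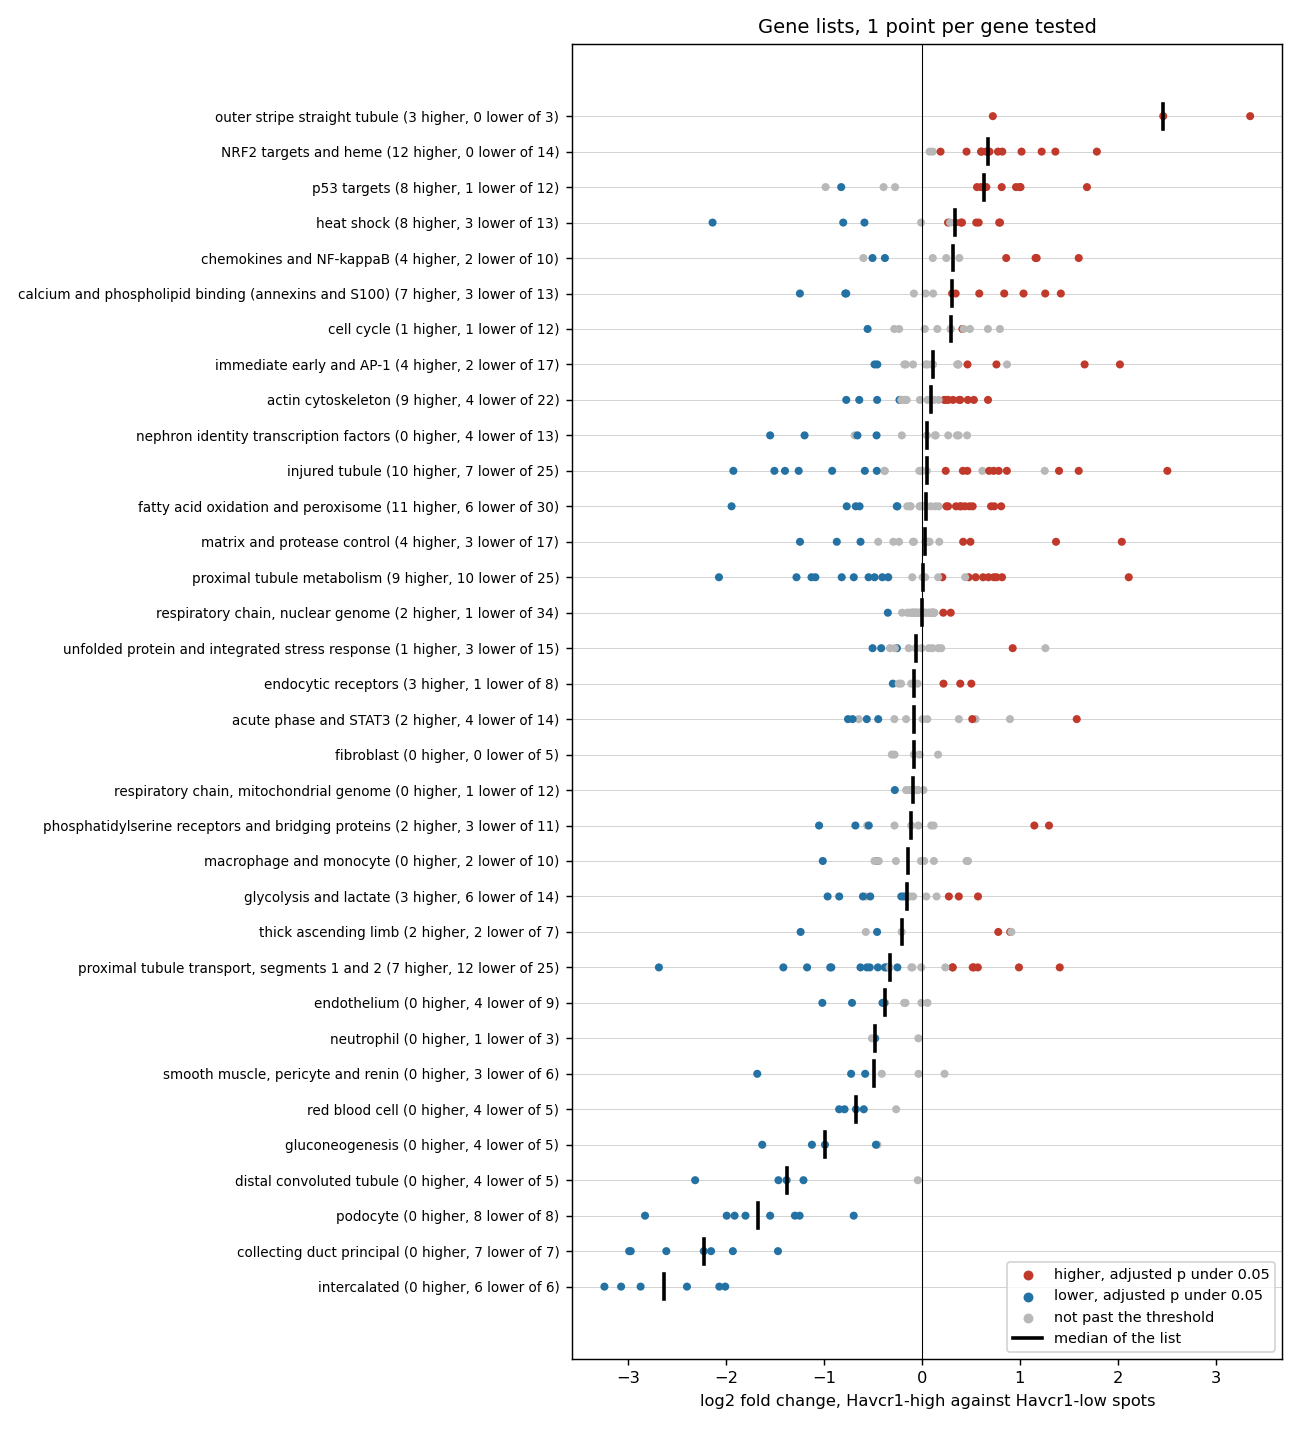
Log2 fold changes of Havcr1-high against Havcr1-low cortex spots (x axis) for the genes of each list that were tested, 1 point per gene, with calls colored and the median of each list as a black bar. Markers of intercalated and principal cells, podocytes and the distal convoluted tubule lie to the left, the outer stripe, NRF2 and p53 lists to the right, and the injured tubule list spans both sides.

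The ranking was then repeated so that the high and low groups were taken within 3 layers of equal size by the summed share of the 35 markers of other segments, an alternative chosen after seeing the data. It called 975 genes higher and 843 lower. The collecting duct lists still fell, by less (medians -1.68 and -2.11), so the balance was partial. The antioxidant list kept its height, with 13 of 14 genes higher and a median of 0.62, as did the p53 list with 8 of 12 and a median of 0.60. *Krt20* was at 2.26, *Fosl1* at 1.92, *Hmox1* at 1.57 and *Kap* at 1.94 on the log2 scale. *Slc34a1* (-1.31), *Gatm* (-2.14), *G6pc* (-1.89) and *Pck1* (-1.36) stayed lower.

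The injured tubule list shifted upward in that balanced ranking, with 12 genes higher, 5 lower and a median of 0.37. *Lcn2* rose by 0.57 (adjusted p = 7.1e-16), and it rose by 0.68 (adjusted p = 5.18e-12) when spots were ranked by their neighbours alone. It was lower when the groups were taken within 3 layers of the cortex score (-0.29). *Clu* (-0.83) and *Krt18* (-0.72) stayed lower but nearer to 0. The direction of *Lcn2* thus changed with the choice of spots, in contrast to *Krt20*, *Fosl1* and *Hmox1*, whose values were past the threshold under each of the 20 alternatives run. *Kap*, *Slc34a1* and *Pck1* kept their direction under all 20 and lost the call without section 2 (2.02, -1.04 and -0.99).

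When the groups were taken within 3 layers of the cortex score and of UMIs per spot together, 994 genes were higher and 904 lower. Spots at least 2 steps from tissue outside the cortex gave 753 and 691 (both alternatives were chosen after seeing the data), and the outer stripe markers were still higher there (3 of 3).

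**Figure D5:**
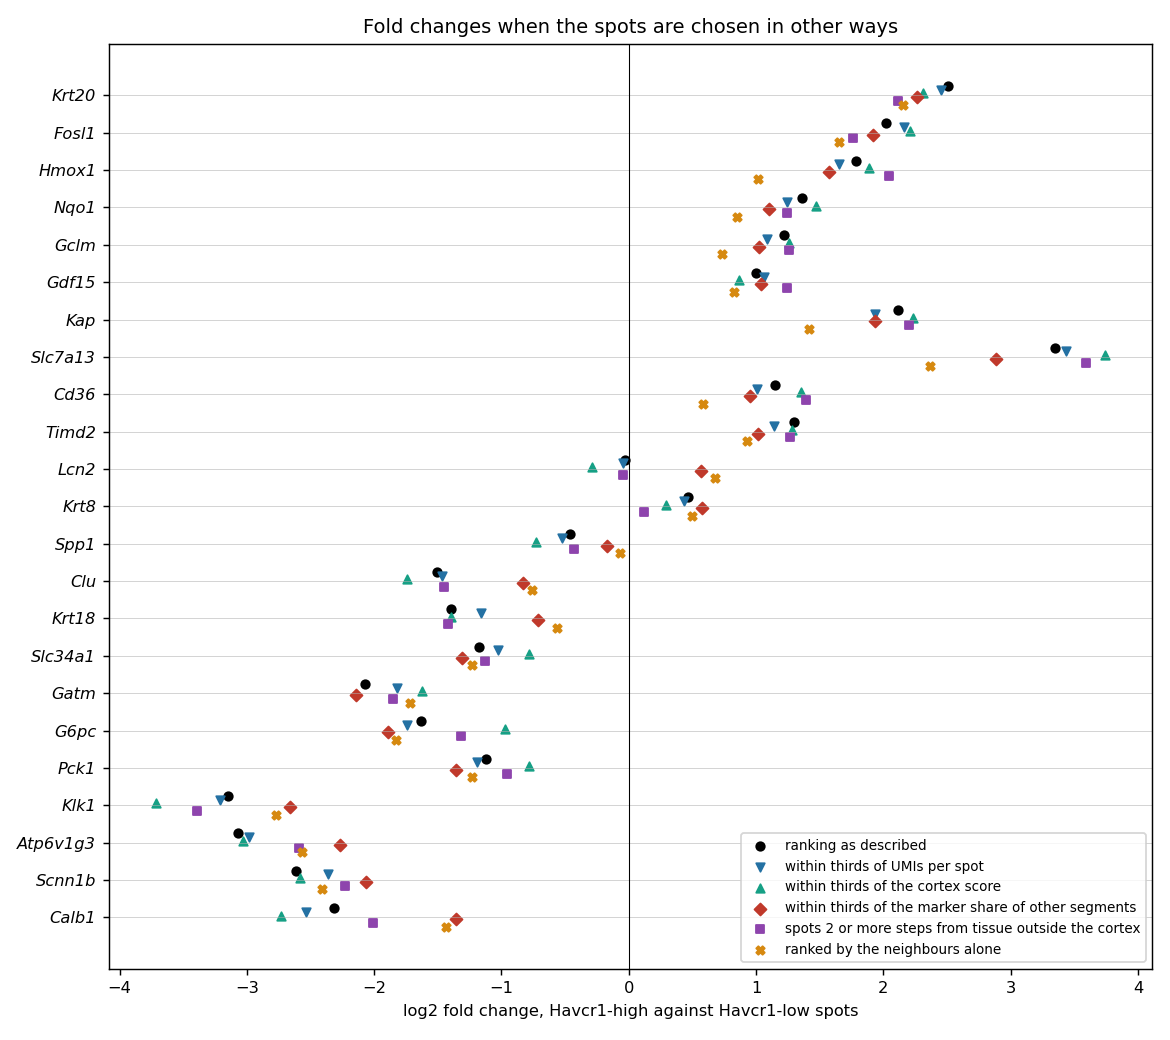
Log2 fold change (x axis) of 23 genes between Havcr1-high and Havcr1-low cortex spots under the ranking as described and 5 other ways of choosing spots, 1 symbol per choice. Krt20, Fosl1, Hmox1, Nqo1, Gclm, Gdf15 and Kap stay right of 0 and the collecting duct and early proximal tubule genes left of 0 under all 6, while Lcn2 lies on either side.

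The low spots were compared with cortex spots of the normal sections to ask how far the less affected cortex was from normal. This comparison shares the low libraries with the one above, so the values are set side by side and were not correlated, and the normal spots were all cortex spots of at least 2000 UMIs, not matched for position. Of 12227 genes, 2085 (17.1%) were higher in *Havcr1*-low ischemic cortex and 2215 (18.1%) lower. Scaling by library totals moved the median gene to 0.35 and the calls to 3851 higher and 1162 lower.

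*Havcr1*-low cortex carried most of the injury genes. Of 24 tested genes of the injured tubule list, 23 were higher than normal and none was lower, with a median of 2.57 against 0.03 over all genes. *Lcn2* was higher by 9.17 ± 0.21 (log2 fold change ± standard error), *Spp1* by 4.80 ± 0.17, *Clu* by 3.80 ± 0.15 and *Krt18* by 2.65 ± 0.15. In that comparison the antioxidant list had 9 genes higher and 2 lower of 14, the p53 list 6 higher and 1 lower of 12, and the acute phase list 13 higher and 1 lower of 15. *Gclm* (0.27 ± 0.12, adjusted p = 0.0599) and *Mdm2* (-0.06 ± 0.17, adjusted p = 0.83) did not differ from normal in low spots by more than the threshold, and both were higher in high than in low spots.

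Proximal tubule genes were already low in the *Havcr1*-low spots. Of 25 transport genes 21 were lower than normal and 3 higher, of 26 metabolism genes 24 were lower, and all 5 outer stripe genes were lower. *Slc34a1* (-2.79 ± 0.14), *Gatm* (-2.59 ± 0.13) and *Kap* (-3.42 ± 0.19) were among them. The respiratory chain, which barely moved between high and low spots, was lower than normal in 32 of 34 nuclear and 10 of 13 mitochondrial genes. *Pck1* went the other way, higher in low spots than in normal cortex (1313 and 1256 against 844 and 802 CPM, 0.63 ± 0.12) and below normal in high spots. Of the 7 principal cell markers 5 were higher in low spots than in normal cortex and none was lower, and of 7 intercalated cell markers 1 was lower.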

How the data were processed

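Visium libraries of 2 ischemic and 2 normal kidney sections were used. The authors ran Space Ranger 1.3.0 (per the file headers) on mm10 (per the submitters' processing notes) and deposited UMI counts, not normalized, of 32285 genes in each tissue spot. Spots were chosen as described, counts were summed per section and group, and tested with edgeR 4.0.16 in R 4.3.3 (TMM, filterByExpr, quasi-likelihood test, section as block, Benjamini-Hochberg adjustment, threshold 0.05). The comparison with normal cortex had no block. DESeq2 1.42.0 was an alternative. Levels are CPM after TMM over 8 ischemic libraries (4 groups in 2 sections) and 2 normal libraries. Summed libraries held 1546571 to 2438190 UMIs in the compared groups. The fits were tested on simulated data.

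Members and gene lists were chosen with earlier results of these data known. Named genes were the 10 largest rises and falls called in the same direction in both sections with a mean of at least 20 CPM, up to 4 genes of each list by size of change, the genes of the spot rule, and Lcn2, Krt8, Krt18, Krt20, Clu, Spp1, Sox9, Vcam1, Cdkn1a, Cd44, Lrp2, Cubn, Slc34a1 and Hnf4a. Other genes named in the text are members of these lists and were named after their values were seen. Alternatives changed the test, filter, scaling, block, sections, share of spots, depth minimum, cortex size and ranking. Gene positions came from GENCODE vM21 by gene identifier. A few genes of the lists are not reported here.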

Additional observations from a re-analysis of the deposited data

How the results depend on the processing

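With 2 ischemic sections, 1 degree of freedom was left for the spread, and the number of calls rested on its estimate. Genes higher and lower in *Havcr1*-high spots numbered 263 and 182 with DESeq2, 687 and 1760 with library totals, 600 and 510 with the top 15% of tissue spots as cortex, 778 and 672 when ranked after thinning to 2000 UMIs, 626 and 625 when ranked by neighbours and 753 and 691 at 2 or more steps from tissue outside the cortex. Leaving out a section gave 138 to 262 and 220 to 371. Against normal cortex, the low spots gave 1077 and 1471 with DESeq2, 3851 and 1162 with library totals, 1387 higher with the smaller cortex, and 1329 to 1932 higher and 1530 to 2363 lower when a section was left out. The causes were not tested beyond the spread that each tool estimated. The other settings gave counts within 1.5 times of those in the report.

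Without the section block 910 genes were higher and 798 lower in high spots. Replicate numbers do not pair ischemic with normal sections (correlation of deviations 0.0353 over 12232 genes), and the replicate block gave 2236 and 2361 calls against normal cortex.

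Named genes past the threshold in the reported fit or the alternative whose log2 fold change turned sign between high and low spots were, by neighbours, Cdkn1c 0.0035, Dcn 1.01, Hk1 0.063, Lcn2 0.68 and Trpm6 0.0076, balanced for other segments, Lcn2 0.57, with the smaller cortex, Egr1 -0.19, Ehd3 0.18 and Slc12a1 -0.042, and after thinning, S100a8 0.74 and S100a9 0.38. Against normal cortex, Atp6v1g3 (-0.28) and Hsd11b2 (-0.13) reversed when the lower 2 of the 4 groups were pooled. The cause was not tested. Of 126 named genes called between high and low spots, DESeq2 kept 71 of the 122 it could call and the fits without section 1 or 2 kept 78 and 60.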
